A study of Mus musculus with 12 samples.

Results

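The genes of the RANKL axis and of osteoclast cell fusion were followed across the m6A peak lists of allergic and control mouse lung. They were 9 genes, namely Tnfsf11, Tnfrsf11a, Tnfrsf11b, Nfatc1, Dcstamp, Ocstamp, Acp5, Ctsk and Spp1, and 8 of them were among the 17415 genes with a peak in either list. A peak was counted for a gene when the authors' annotation assigned it to that gene or when it had been called on that gene's identifier. This gave 16 of the 27292 peaks of the OVA list and 15 of the 26102 peaks of the PBS list. The group of genes was chosen by measured values of these same lists, namely the high fold enrichment of the Tnfsf11 peak in the OVA list and an Ocstamp peak there that had no counterpart in the PBS list, so both are given below as descriptions without a test.

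Lung tissue came from female BALB/c mice aged 6 to 8 weeks, with 3 OVA mice and 3 PBS mice. OVA mice were sensitized by intraperitoneal injection of ovalbumin with aluminum hydroxide on days 0 and 7, and inhaled 3% ovalbumin for 30 min a day from day 14 to day 20, while control mice were given phosphate-buffered saline alone, without ovalbumin or aluminum hydroxide. Tissue was taken on day 21, and the methods describe a methacholine provocation test and a lavage on that day without saying which mice were sequenced. Each mouse gave an input library and an immunoprecipitated (IP) library, pulled down with an antibody against N6-methyladenosine (m6A), for 12 libraries in all. The authors deposited 1 peak list per group, so no value belongs to a single mouse and a difference between groups cannot be set against a spread over mice.

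RANKL, a cytokine of the tumor necrosis factor family, binds its receptor RANK on precursors of the monocyte lineage, and the decoy receptor osteoprotegerin keeps it from doing so. RANK signaling through TRAF6 and NF-kB induces the transcription factor NFATc1, which switches on the membrane proteins needed for fusion into multinucleated osteoclasts and the enzymes that degrade bone matrix. Outside bone, RANKL is made by activated T cells, and macrophages of the lung express several of the same effector genes.

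Each peak carries a fold enrichment, which is the ratio of IP over input signal inside the peak, and the log10 of its p value, where a more negative number is a stronger call. The p value of a peak call rests on read numbers as well as on the ratio, so these quantities need not rank peaks alike. Over all OVA peaks the median fold enrichment was 5.59 (quartiles 2.91 and 11.4), and over all PBS peaks it was 5.44 (quartiles 2.86 and 10.9). The median log10 p was -24 in OVA lung and -21.4 in PBS lung. Below, values in OVA lung and in PBS lung are those of the respective list. No scaling between the lists is described, so values are set side by side and for the main peaks a percentile within the own list is also given. A peak needs both the modification and enough RNA, and in bulk lung fewer cells of a type and less RNA per cell cannot be told apart. The lists give no read counts, so the depth behind a peak is unknown.

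Of the 9 genes, 8 had a peak in OVA lung and 7 in PBS lung. Ocstamp had a peak in the OVA list only, no gene had one in the PBS list only, and for Spp1 neither list as analysed here held a peak. The paper nevertheless names Spp1 among its hypermethylated mRNAs, so its place outside these counts holds for the lists used here. Among all 17415 genes with a peak, 10.2% had one in the OVA list only and 6.87% in the PBS list only. At peak level, 12 of the 16 OVA peaks shared at least 1 bp of exonic sequence with a PBS peak and 4 did not, whereas 19.4% of all OVA peaks had no such overlap. In the PBS list 3 of the 15 peaks had no overlap, beside 14.5% of all PBS peaks. Since the genes were chosen on the OVA and PBS lists themselves, nothing is read from these shares.

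The ligand gene Tnfsf11, which encodes RANKL, carried 1 peak in each list, and both lay in the 3' UTR of ENSMUST00000022592 on the minus strand. The OVA peak spanned 78278369 to 78278965 on chromosome 14 (GRCm38), a length of 597 bp. The PBS peak, from 78278488 to 78278875, lay wholly inside it, so that all of its 388 bp were shared. The fold enrichment was 196 in OVA lung and 20.2 in PBS lung. The OVA value was at the 99.97 percentile of its list, where it ranked 10, and the PBS value was at the 93.4 percentile. The log10 p was -78.7 in OVA lung and -5.97 in PBS lung. By p the peak stood lower, at the 68.7 percentile of the OVA list and the 26.1 percentile of the PBS list, where a higher percentile is a stronger call. The gene thus ranked near the top of the OVA list by its ratio and in the middle range by the strength of the call.

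In the OVA list the peaks next above Tnfsf11 by fold enrichment were those of Rrbp1, at 198, and the pseudogene Hmgb1-ps9, at 202. The next below were those of Aldh1b1, at 182, and Kctd1, at 174. Their log10 p values were -187 for Rrbp1, -68.7 for Hmgb1-ps9, -61.5 for Aldh1b1 and -60.2 for Kctd1, so that the call on Tnfsf11 was weaker than that on Rrbp1 and stronger than the other 3.

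**Figure D1:**
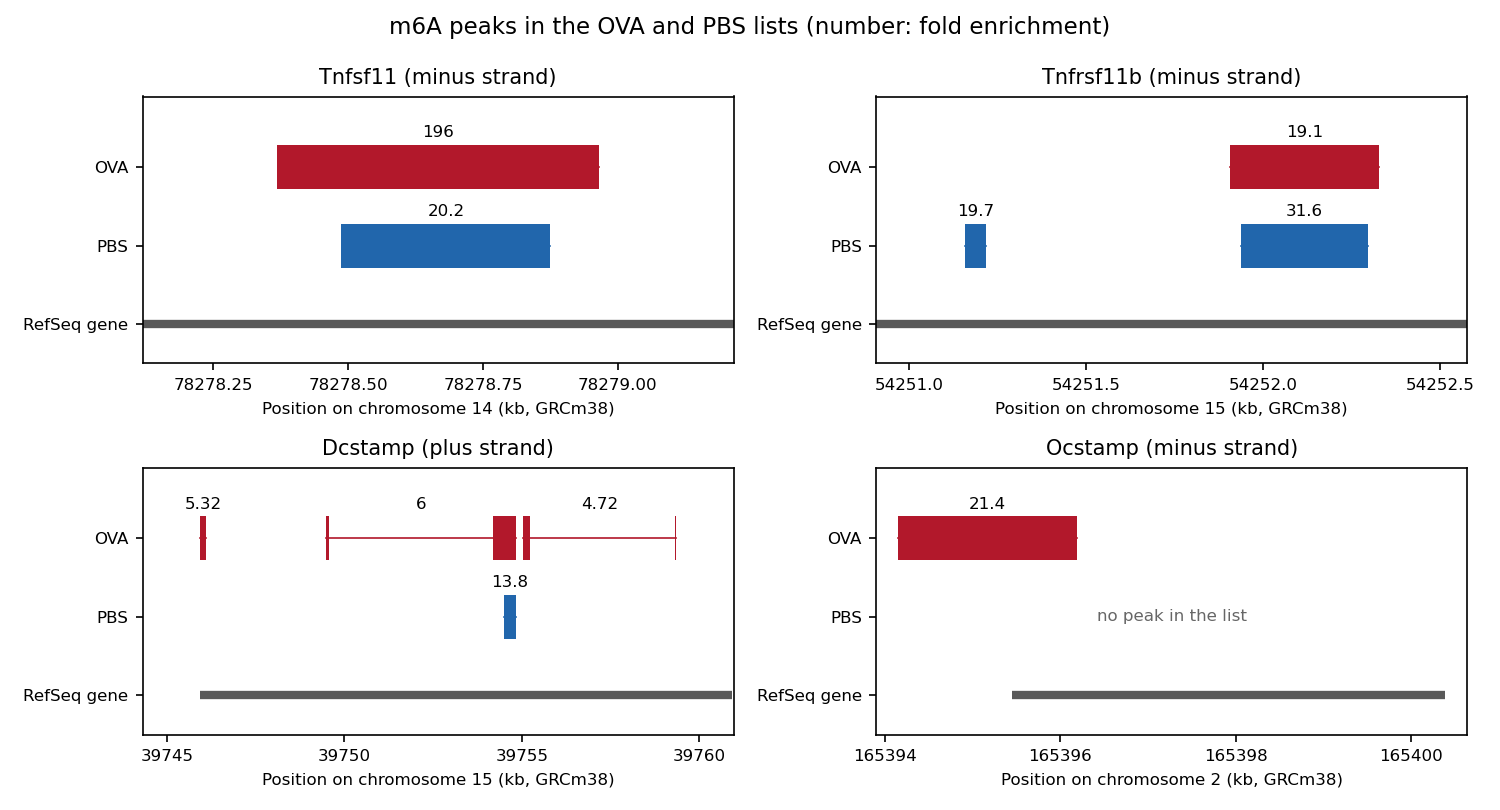
Peaks of 4 genes in the OVA list (red) and the PBS list (blue), drawn to scale by chromosome position in kb. Boxes are exonic blocks, thin lines join the blocks of a peak, numbers are fold enrichments and grey bars are RefSeq gene positions. Each OVA peak of Tnfsf11 and Tnfrsf11b shown here encloses a PBS peak, Dcstamp has 3 OVA peaks and 1 PBS peak, and the Ocstamp peak of 2038 bp has no PBS counterpart.

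The receptor gene Tnfrsf11a, which encodes RANK, had its main peak at nearly the same place in both lists. It lay in exon 9 of 10 of ENSMUST00000027559 on chromosome 1, from 105827038 to 105827726 in the OVA list and from 105827098 to 105827726 in the PBS list. The fold enrichment was 16.0 in OVA lung, at the 86.4 percentile, and 18.0 in PBS lung, at the 91.0 percentile. The log10 p was -566 in OVA lung and -197 in PBS lung. This was the strongest PBS call by p among the 9 genes. Each list held a further, weaker peak on the gene, and these did not overlap. The OVA peak lay in exon 10, from 105844630 to 105844839, with a fold enrichment of 4.36 and a log10 p of -11.0. The PBS peak lay downstream in the 3' UTR, from 105845677 to 105845767, with a fold enrichment of 1.70 and a log10 p of -3.72. The annotation assigned all 4 of these peaks to the retained-intron transcript ENSMUST00000187658, although the exon numbers are those of the other transcript.

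The decoy receptor gene Tnfrsf11b, which encodes osteoprotegerin, had the higher fold enrichment in the PBS list. Its shared 3' UTR peak on chromosome 15 ran from 54251908 to 54252327 in the OVA list and from 54251938 to 54252297 in the PBS list. The fold enrichment was 19.1 in OVA lung, at the 91.0 percentile, and 31.6 in PBS lung, at the 98.4 percentile. The PBS value was the highest of the 15 PBS peaks on these genes. The log10 p was -60.2 in OVA lung and -29.0 in PBS lung. A further PBS peak of 61 bp in the same 3' UTR, from 54251158 to 54251218, had a fold enrichment of 19.7 and a log10 p of -5.81, and overlapped no OVA peak. The gene's other peak joined 2 exonic blocks and was labelled 5' UTR, from 54260050 to 54278304 in the OVA list and from 54260080 to 54278274 in the PBS list. There the fold enrichment was 2.84 in OVA lung and 2.38 in PBS lung, both under the respective lower quartile.

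The fold enrichment of the Tnfrsf11b peak, 31.6, was shared by 13 peaks of the PBS list. The next value above it, 31.7, belonged to peaks called on Snx13, Bbc3 and Kbtbd11. The next value below, 31.4, belonged to 6 peaks, called on Lemd3, Sac3d1, Kcnn3, Fpgt, Bmp2k and BC035044. Among these 9 neighbours, Kcnn3 with a log10 p of -28.7 and Fpgt with -28.6 were closest to Tnfrsf11b in call strength as well.

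Nfatc1, the transcription factor that RANK signaling induces, had the most peaks of the 9 genes, with 4 in OVA lung and 5 in PBS lung on chromosome 18. All 4 OVA peaks overlapped a PBS peak. The peak at the 3' end of the gene ran from 80606205 to 80606625 in the OVA list and to 80606715 in the PBS list. It had a fold enrichment of 9.12 in OVA lung and 5.61 in PBS lung. This peak was called on Nfatc1 but assigned to the noncoding gene Gm41790, so which RNA it came from is uncertain. The neighbouring peak, whose 3 exonic blocks ran from 80607045 to 80635434 in the OVA list, had nearly equal values, with a fold enrichment of 5.83 in OVA lung and 5.94 in PBS lung. Its log10 p was -66.8 in OVA lung and -59.5 in PBS lung.

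The other shared Nfatc1 peaks had lower fold enrichments. From 80649612 to 80649852 the OVA peak had a fold enrichment of 4.40, and the overlapping PBS peak, from 80649642 to 80649762, had 2.52. In exon 2 of 10 of ENSMUST00000167977 the OVA peak, from 80697638 to 80697998, had a fold enrichment of 3.52 and a log10 p of -184. Its PBS counterpart had a fold enrichment of 2.85 and a log10 p of -103. The exon 2 peak was thus the strongest Nfatc1 call of both lists by p and a low one by ratio. The PBS peak without an OVA counterpart lay in exon 9, from 80635524 to 80635614, with a fold enrichment of 1.58 and a log10 p of -3.01. It was the weakest of all 31 peaks described here by either measure.

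The fusion genes Dcstamp and Ocstamp encode multipass membrane proteins required for the joining of osteoclast precursors and of macrophages into giant cells. Dcstamp had 3 peaks in OVA lung and 1 in PBS lung, on chromosome 15. The first OVA peak began at the annotated transcript start, from 39745930 to 39746110, with a fold enrichment of 5.32 and a log10 p of -19.9, and had no PBS counterpart. The next OVA peak had blocks of 79 bp and 640 bp between 39749480 and 39754823, with a fold enrichment of 6.0 and a log10 p of -201. The PBS peak, from 39754493 to 39754823, lay inside the larger block and ended at the same base. Its fold enrichment was 13.8, at the 83.9 percentile of its list, but its log10 p was only -3.86, at the 15.1 percentile. The ratio and the strength of the call therefore ran in opposite directions between the lists for this peak. The last OVA peak, with blocks of 194 bp and 46 bp between 39755032 and 39759359, had a fold enrichment of 4.72 and a log10 p of -120 and overlapped no PBS peak. No PBS peak was listed on the gene at either end of the OVA stretch.

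Ocstamp had its only peak in the OVA list, in the 3' UTR of ENSMUST00000029213 on chromosome 2, from 165394150 to 165396187. At 2038 bp it had the greatest exonic length of the 31 peaks. The fold enrichment was 21.4, at the 93.2 percentile, and the log10 p was -797, at the 95.7 percentile and the strongest call among the 31 peaks. Among the 5286 OVA peaks that overlapped no PBS peak, it ranked 4 by p. The 3 ahead of it were called on Gm20056, with a log10 p of -3410, on the chemokine gene Ccl8, with -1290, and on the goblet cell gene Clca1, with -999. Its fold enrichment of 21.4 was above the values of these 3, which were 11.8 for Gm20056, 3.32 for Ccl8 and 3.55 for Clca1. The 5286 peaks had a median fold enrichment of 2.87, a median log10 p of -4.2 and a median exonic length of 121 bp. The RefSeq gene ends at 165395450, so 738 bp of the peak lay inside it and 1300 bp beyond its 3' end, within the longer transcript of the authors' annotation, which reaches down to 165393760. The genes ranked around it were picked after their values were seen.

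**Figure D2:**
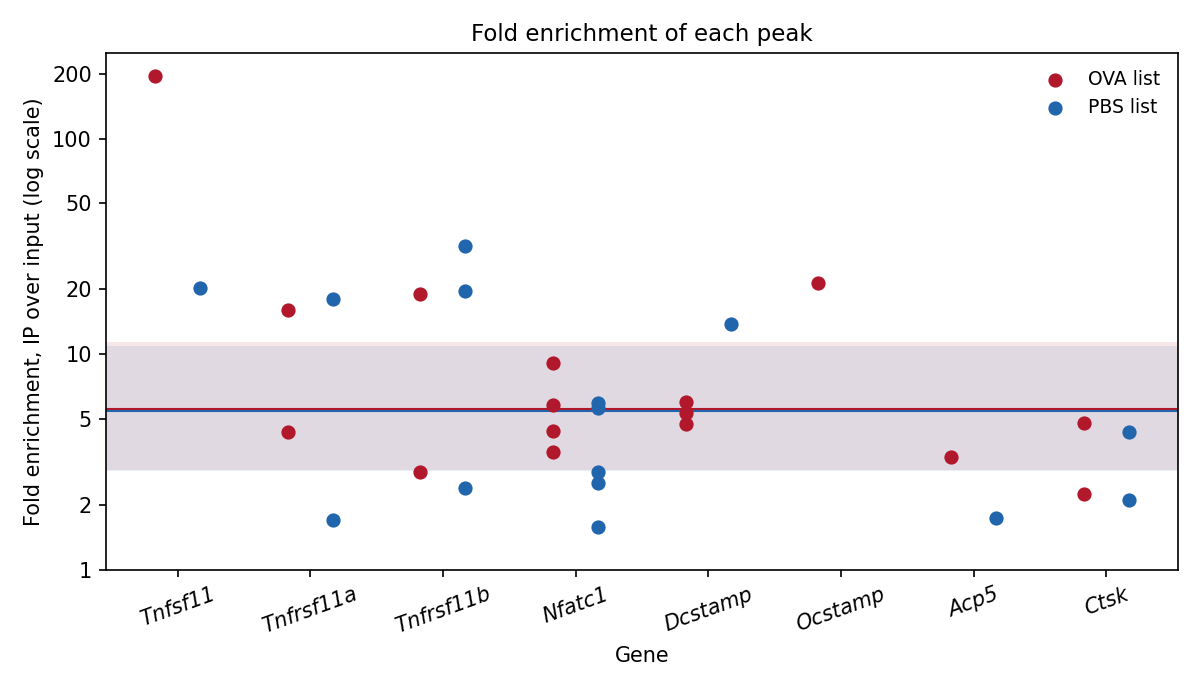
Fold enrichment of IP over input on a log axis for each of the 31 peaks, by gene, in the OVA list (red) and the PBS list (blue). Lines are the medians of all peaks of each list, 5.59 and 5.44, and shaded bands run between their quartiles. The Tnfsf11 peak of the OVA list, at 196, stands above all others, and Nfatc1 peaks of the OVA list lie inside the band.

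Among the effector enzymes, Acp5 encodes tartrate-resistant acid phosphatase, the classical stain of osteoclasts, which macrophages of the lung also make. Its OVA peak on chromosome 9, from 22126817 to 22127175, had a fold enrichment of 3.34 and a log10 p of -120. The PBS peak, of 121 bp from 22127025 to 22127145, lay inside it and had a fold enrichment of 1.73 and a log10 p of -3.45. Both values of the PBS peak were low in its list, at the 5.89 percentile by fold enrichment and the 12.2 percentile by p. When only peaks with a fold enrichment of at least 2 were kept, Acp5 had no peak left in the PBS list, and genes with a peak in the OVA list only became 2 instead of 1. The share of all genes at this threshold is not given here, so nothing is read from that change.

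Ctsk encodes cathepsin K, the collagen-degrading protease of osteoclasts. Its 3' UTR peak on chromosome 3 ran from 95508977 to 95509362 in the OVA list and from 95509006 to 95509332 in the PBS list. The fold enrichment was 4.78 in OVA lung and 4.36 in PBS lung, close to the same percentile of each list at 44.5 and 41.9. The log10 p was -497 in OVA lung and -35.0 in PBS lung, so the lists were alike in the ratio and far apart in the strength of the call. A second peak assigned to Ctsk, starting at 95495801 in both lists, lay before the gene's RefSeq start at 95499210 and had been called on the neighbouring gene Arnt. It had a fold enrichment of 2.24 in OVA lung and 2.11 in PBS lung, and log10 p values of -29.1 and -30.3. It is counted here by the assignment and may not belong to Ctsk RNA.

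Spp1 encodes osteopontin, a secreted phosphoprotein of bone matrix and of activated macrophages. Neither list, as analysed here, held a peak assigned to it, called on it or lying over its RefSeq position on chromosome 5. The paper, however, lists Spp1 as both hypermethylated and upregulated in OVA lung. Why the lists used here hold no peak on the gene was not tested. The absence of a called peak in a group's list does not show that Spp1 RNA carries no m6A. The expression of Spp1 was not analysed here.

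Across the genes, the 12 overlapping pairs of peaks were each other's best match, and 11 of them had the lower p in the OVA list. Among all 20531 such pairs of the lists, 59.4% had the lower p in the OVA list. The exception was the peak called on Arnt. The OVA peak was the longer one in 9 of the 12 pairs, beside 49.9% of all pairs. The fold enrichment was at the higher percentile in the OVA list in 8 of the 12 pairs, beside 57.5% of all pairs. The 4 pairs with the higher percentile in the PBS list were the main peaks of Tnfrsf11a, Tnfrsf11b and Dcstamp and the 3-block peak of Nfatc1. Pairs on the same gene share its RNA and are not independent, and the genes were selected on these lists, so the counts describe the pairs and are not a test.

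**Figure D3:**
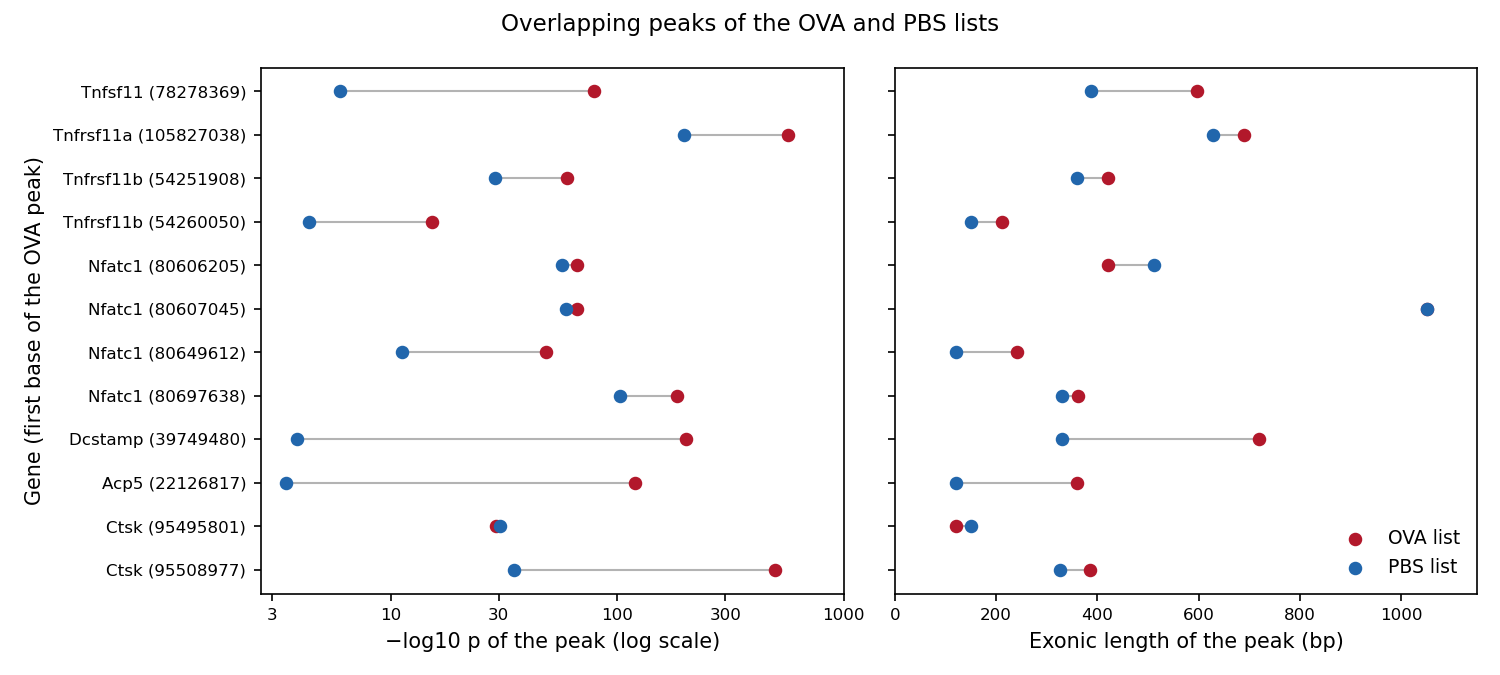
Strength of the call, as −log10 p on a log axis, and exonic length in bp for the 12 overlapping pairs of peaks in the OVA list (red) and the PBS list (blue). Each line joins a pair, named by gene and by the first base of the OVA peak. The OVA point lies to the right in 11 of 12 pairs for p and in 9 of 12 for length, and the lengths of the 3-block Nfatc1 peak, 1050 and 1051 bp, coincide.

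By position, the label 3' UTR was the most frequent of the 3 labels in both lists. In the OVA list 9 of the 16 peaks were labelled 3' UTR, and in the PBS list 9 of 15, beside 52.7% of all peaks of each list. The label exon was given to 4 of the 16 OVA peaks, beside 35.7% of all OVA peaks, and to 5 of the 15 PBS peaks, beside 35.9%. The label 5' UTR was given to 3 of the 16 OVA peaks, beside 11.6%, and to 1 of the 15 PBS peaks, beside 11.4%. A fold enrichment above the list's median was seen for 7 of the 16 peaks in OVA lung and 7 of the 15 in PBS lung. A p lower than the list's median was seen for 13 of the 16 in OVA lung and again for 7 of the 15 in PBS lung. A label can depend on the extent of a peak, since the overlapping Acp5 peaks were labelled 3' UTR in the OVA list and exon 5 of 5 in the PBS list.

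The other genes of the pathway came from 10 lists with 113 genes, of which 94 had a peak in either list and 87 in both. Peaks in the OVA list only were found for 6 of the 94 genes, or 6.38%, and in the PBS list only for 1, or 1.06%, both lower than the 10.2% and 6.87% of all genes. Most genes of the 10 lists thus carried peaks in both groups, as did 14450 of the 17415 genes with a peak in either list.

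Among the transducers of RANK signals, 21 of 24 genes had an OVA peak and 20 a PBS peak. Chuk, a kinase of NF-kB activation, had an OVA peak only, with a fold enrichment of 2.60 and a log10 p of -3.77. Mapk8, Relb and Akt1 had none. The highest fold enrichment belonged to Jun in both lists, at 97.4 in OVA lung and 63.3 in PBS lung, with the same boundaries, by a peak called on Jun and assigned to Gm12703. All 6 other ligands and receptors of the axis had peaks in both lists. There Csf1r led the OVA list at 42.1, by a peak that had been called on the adjacent gene Pdgfrb, and Csf1, which encodes a growth factor of osteoclast precursors, led the PBS list at 25.2.

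Of the 13 genes of ITAM co-stimulation and calcium signaling, 9 had an OVA peak and 8 a PBS peak. Trem2, a receptor of macrophages and osteoclasts, had one in the OVA list only, with a fold enrichment of 2.45 and a log10 p of -10.6. Btk led the OVA list at 33.4, by a peak assigned to Timm8a1, and Creb1 the PBS list at 34.3. All 7 genes of the NFAT family and its regulators had peaks in both lists, led by Dyrk1a at 19.6 in the OVA list and Nfatc2 at 32.6 in the PBS list. Of the 12 transcription factors and repressors of osteoclast differentiation, 11 had peaks in both lists and Fosl1 had none. Mitf, an activator, led the PBS list at 42.8.

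The list of other fusion genes and their surface partners differed most in membership, with 9 of 11 genes in OVA lung and 8 in PBS lung. Cd81 and Adam8 had an OVA peak only, and Cd9, which like Cd81 encodes a tetraspanin, had a PBS peak only. Cd81 had a fold enrichment of 1.35 and a log10 p of -39.5. Adam8 had a fold enrichment of 4.94 and a log10 p of -23.9, by a peak called on it and assigned to Spef1l. Cd9 had a fold enrichment of 2.76 and a log10 p of -8.50. All 3 were below the Ocstamp peak in ratio and in call strength. Since that peak was among the values by which the genes were chosen, nothing is read from this. P2rx7 led the OVA list at 29.1 and Sh3pxd2a the PBS list at 16.9, the latter by a peak assigned to Mir6995. Siglec15 had no peak.

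In the acid and protease machinery of resorption, 10 of 14 genes had an OVA peak and 9 a PBS peak. The matrix protease gene Mmp9 had an OVA peak only, with a fold enrichment of 3.71 and a log10 p of -25.2. The calcitonin receptor gene Calcr led both lists, at 35.9 in OVA lung and 28.1 in PBS lung, by peaks assigned to Mir653. Of the 11 relatives and receptors of osteopontin, 8 had an OVA peak and 7 a PBS peak. Dmp1, a matrix protein gene that lies near Spp1 on chromosome 5, had an OVA peak only, with a fold enrichment of 29.8 and a log10 p of -9.11. The integrin gene Itgb5 led this list at 35.6 in OVA lung and 30.1 in PBS lung.

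Of the 8 inducers of RANKL, 6 had peaks in both lists and Il6 and Il17a had none. Il11 led the OVA list at 38.8, by a peak called on Tmem238, and Ptger4 the PBS list at 20.3. Of the 7 feedback inhibitors, 6 had peaks in both lists and Ptpn6 had none. Tnfaip3 led the OVA list and Socs3 the PBS list, both at 19.3.

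The lists' own annotation gave a wider view, chosen after the lists had been seen. Genes assigned at least 1 peak and placed by it in the KEGG pathway of osteoclast differentiation numbered 86 in OVA lung and 83 in PBS lung, with 81 in both. The 5 found in the OVA list only were Chuk, Cyba, Pira2, Sirpb1b and Trem2, and the 2 found in the PBS list only were Map2k1 and Tyk2. Among all 15341 assigned genes, 11.6% had a peak in the OVA list only and 7.92% in the PBS list only.

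Of 54 markers of cell types that the tissue could hold, 30 had a peak in both lists, 4 in the OVA list only, 3 in the PBS list only and 17 in neither. Over all 17415 genes with a peak in either list, the OVA list only held 10.2% and the PBS list only 6.87%. These shares leave out genes without a peak, and no shift of cell types is read from the marker counts. Among 9 macrophage markers, 4 had a peak in each list, with Chil3 in the PBS list only, at a fold enrichment of 1.75 and a log10 p of -4.51. The macrophage markers Adgre1, Cd68, Marco and Siglecf had none. Of 7 T cell markers, 6 had an OVA peak and 4 a PBS peak, with Cd3g and Cd8a in the OVA list only. These calls were weak, with log10 p values of -6.49 for Cd3g and of -2.63 and -9.93 for Cd8a. Of 7 neutrophil markers, 2 had an OVA peak and 4 a PBS peak, with S100a8 and S100a9 in the PBS list only, and Ly6g, Elane and Mpo had none. The log10 p was -13.4 for S100a8 and -12.7 for S100a9. Eosinophil and B cell markers had peaks for 3 of 5 genes in each list, and the eosinophil markers Epx and Prg2 had none. Of 6 markers of osteoblasts and chondrocytes, 3 had an OVA peak and 2 a PBS peak, with Acan in the OVA list only. Fibroblast and alveolar type 2 cell markers had peaks for 4 of 5 genes in each list, without Dcn and Sftpc, and all 5 endothelial markers had peaks in both. The lists hold peaks and not expression levels, and the part of cell composition in the peaks of the RANKL axis and fusion genes was not tested.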

How the data were processed

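m6A peaks of lung from 3 OVA and 3 PBS mice were taken from the lists the authors deposited, 1 per group. The authors trimmed reads with FASTP, aligned them with HISAT2 to an Ensembl mouse genome, called peaks of IP over input with exomePeak and annotated them with ChIPseeker. How the 3 mice of a group were combined is not stated. Fold enrichments, as deposited, are ratios of IP to input from that caller. As deposited, p values and FDRs of peaks are scores on a log10 scale. Other deposited columns give widths, block numbers and distances in bp.

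Deposited starts were found to count from 0, because 649 OVA peaks began 1 bp under the annotated transcript end of lower coordinate and 20 at it, while 869 peaks ended exactly at the upper one. Starts are therefore printed 1 bp higher. Lists were compared by exonic blocks sharing at least 1 bp, and pairs are mutual best overlaps. Percentiles are within a list. No test was run.

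The 9 genes and the gene lists were chosen with earlier results of these data known. The text names every peak of the 9 genes. From each pathway list it names the genes with a peak in 1 list only and the gene with the highest fold enrichment in each peak list. It also names the nearest peaks by fold enrichment, 2 above and 2 below the highest peak of the 9 genes in each list, with all peaks of equal value. A few genes that this rule or the marker lists would name are not reported here. RefSeq positions are of GRCm38. Python 3.11.15, numpy 2.4.6, pandas 2.3.3 and matplotlib 3.10.9 were used, and the overlap code was tested on simulated peaks.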

Additional observations from a re-analysis of the deposited data

How the results depend on the processing

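The 8 counts of peaks and genes were recomputed with the assigned gene name alone, the called gene identifier alone, with peaks of an FDR under 0.01, and with peaks enriched at least 2-fold, and the overlaps also with genomic spans, with 50% of both peaks and with identical start and end. Of the 38 values obtained, 35 stayed within 1.5 times the reported count. With a fold enrichment of at least 2, genes with a peak in the OVA list only became 2, since the Acp5 peak of the PBS list was lost. No share of all genes is given for this threshold, so the count has nothing to be set against. With identical start and end, 0 OVA peaks and 0 PBS peaks had a counterpart, in place of 12 each, because every pair differed at an edge. The share of all peaks with an identical counterpart is not given here, so this is not read as particular to these genes. No paired analysis was possible because the lists hold no values of single mice, and leaving out a mouse could not be run for the same reason. The lists give no read counts, so no interval can be given for a fold enrichment.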
